A study of Mus musculus with 4 samples.

Results

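The Notch pathway was described by 10 genes of 21951 protein-coding genes: the receptors Notch1 and Notch2, the ligands Dll1, Dll4 and Jag1, the glycosyltransferase Lfng, the nuclear factor Rbpj, and the target genes Hes1, Hey1 and Hey2. The genes were chosen by name as core pathway members, and their chromatin was read from ATAC-seq peaks within 1000 bp and within 50000 bp of their transcription start sites (TSSs). ATAC-seq uses a transposase that inserts adapters where DNA is accessible, so a peak marks open chromatin. Day 4 embryoid bodies (EBs), aggregates formed in hanging drops without LIF, were compared between WT and CTCF-K20R cells, with 2 libraries each. CTCF is an architectural protein of chromatin, and in CTCF-K20R cells its lysine 20 was changed to arginine with CRISPR/Cas9. Both genotypes were of the E14Tg2A mouse embryonic stem cell line and had been kept on inactivated mouse embryo fibroblasts with LIF and 2i before differentiation. How many edited clones the K20R libraries come from is not given in the sources used here. EBs are mixtures, so fewer cells with an open region and less opening per cell cannot be told apart.

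Notch receptors sit in the membrane and are activated by Delta or Jagged ligands on a neighbouring cell. Ligand binding leads to cleavage of the receptor, and the freed intracellular domain enters the nucleus, joins RBPJ on DNA and turns on target genes such as the HES and HEY repressors. In the early embryo the pathway takes part in somite formation, in the specification of endothelium and in heart development.

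The 4 peak lists held 59783 and 66703 peaks in WT against 51823 and 55832 in K20R. Read numbers are not part of the lists, so the depth behind a peak is unknown and no counting interval was given. Promoter peaks were present in all 4 lists for the 5 pluripotency, 5 early mesoderm, 3 endoderm, 2 neuroectoderm and 5 fibroblast genes examined, so presence alone did not separate these cell types. Of 3 endothelial genes, Kdr had a promoter peak in all 4 lists, Pecam1 in 1 and Cdh5 in none. All 3 endoderm promoters ranked lower in K20R, among them Foxa2 with 85.7 and 86.5 in WT against 40.1 and 32.4 in K20R on the scale explained below, while 2 of the 5 early mesoderm promoters ranked lower and 2 higher. Of the fibroblast promoters, 2 ranked lower and 1 higher, and of the neuroectoderm promoters 1 ranked lower. Of the pluripotency promoters, 2 ranked higher and none lower on that scale. Pou5f1 had 28.8 and 29.2 in WT against 49.8 and 55.2 in K20R. Zfp42 had 33.1 and 47.8 in WT against 62.6 and 70.6 in K20R. By percentile within the whole list Nanog was lower, with 73.7 and 82.5 in WT against 72.1 and 68.5 in K20R. The part of these cell types in the values of the Notch genes was not tested.

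Sequences in mm10 show what the compared regions are made of. Each is the plus strand, 5′ to 3′, from 100 bp before to 100 bp after the strongest summit. Capitals mark the core RBPJ site TGGGAA or its reverse complement TTCCCA, the HES/HEY sites CACGTG and CACGCG (or CGCGTG), and the GATA site AGATAA (or TTATCT). The window of the target promoter Hey1 holds no RBPJ core. Its summit lies 83 bp downstream of the TSS, so little of the sequence upstream of the TSS was searched there. The target promoters Hes1 and Hey2 carry the RBPJ core just upstream of the TSS, with a pair of copies in Hes1:
Hes1 promoter, chr16:30065135-30065335: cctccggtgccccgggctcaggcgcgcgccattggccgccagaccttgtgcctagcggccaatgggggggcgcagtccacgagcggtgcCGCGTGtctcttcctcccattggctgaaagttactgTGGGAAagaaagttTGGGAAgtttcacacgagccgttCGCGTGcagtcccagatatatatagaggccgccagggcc
Hey2 promoter, chr10:30842859-30843059: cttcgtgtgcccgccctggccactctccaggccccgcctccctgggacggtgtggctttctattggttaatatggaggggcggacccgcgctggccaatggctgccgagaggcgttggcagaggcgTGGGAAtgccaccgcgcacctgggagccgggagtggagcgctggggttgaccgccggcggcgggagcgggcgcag
Next come the 3 promoters at which the genotypes did not overlap, with Lfng cut where its first exon begins:
Notch1 promoter, chr2:26503828-26504028: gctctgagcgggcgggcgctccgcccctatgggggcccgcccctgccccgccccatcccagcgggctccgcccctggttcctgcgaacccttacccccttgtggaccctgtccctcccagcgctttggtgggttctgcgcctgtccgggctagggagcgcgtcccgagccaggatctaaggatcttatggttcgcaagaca
Jag1 promoter, chr2:137117169-137117369: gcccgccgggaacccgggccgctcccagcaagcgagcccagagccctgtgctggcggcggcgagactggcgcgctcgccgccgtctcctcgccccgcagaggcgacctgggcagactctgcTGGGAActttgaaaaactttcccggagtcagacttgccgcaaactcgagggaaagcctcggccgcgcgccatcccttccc
Lfng promoter, chr5:140607250-140607319: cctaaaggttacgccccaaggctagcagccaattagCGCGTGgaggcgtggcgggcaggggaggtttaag
The 3 highest ranked regions with peaks in both WT lists and in neither K20R list were upstream of Hey1, in an intron of Jag1 and upstream of Jag1:
Hey1 upstream, chr3:8709377-8709577: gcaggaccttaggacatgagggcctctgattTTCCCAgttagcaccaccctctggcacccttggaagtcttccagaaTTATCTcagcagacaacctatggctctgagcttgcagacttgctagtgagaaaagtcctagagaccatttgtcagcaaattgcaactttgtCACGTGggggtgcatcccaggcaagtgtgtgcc
Jag1 intron, chr2:137101189-137101389: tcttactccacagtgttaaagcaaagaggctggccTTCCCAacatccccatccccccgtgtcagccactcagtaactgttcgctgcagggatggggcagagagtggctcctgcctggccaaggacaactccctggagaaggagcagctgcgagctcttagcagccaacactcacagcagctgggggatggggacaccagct
Jag1 upstream, chr2:137153474-137153674: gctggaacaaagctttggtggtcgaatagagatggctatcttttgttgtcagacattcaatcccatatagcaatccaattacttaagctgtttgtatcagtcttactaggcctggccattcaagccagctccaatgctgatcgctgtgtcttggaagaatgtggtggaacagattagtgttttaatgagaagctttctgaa
Last are the 3 regions open in all 4 libraries whose rank fell most in K20R, in a Notch1 intron, upstream of Notch1 and downstream of Dll1, which, like the target promoters, were picked for printing after their values or motifs were seen:
Notch1 intron, chr2:26487045-26487245: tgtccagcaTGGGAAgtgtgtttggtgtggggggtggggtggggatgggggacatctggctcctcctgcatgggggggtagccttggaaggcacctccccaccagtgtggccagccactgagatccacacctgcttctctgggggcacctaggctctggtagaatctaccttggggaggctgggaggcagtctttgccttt
Notch1 upstream, chr2:26547530-26547730: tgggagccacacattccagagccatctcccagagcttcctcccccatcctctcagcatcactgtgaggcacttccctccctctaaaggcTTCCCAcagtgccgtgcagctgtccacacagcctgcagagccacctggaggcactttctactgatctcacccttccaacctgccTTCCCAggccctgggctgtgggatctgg
Dll1 downstream, chr17:15343144-15343344: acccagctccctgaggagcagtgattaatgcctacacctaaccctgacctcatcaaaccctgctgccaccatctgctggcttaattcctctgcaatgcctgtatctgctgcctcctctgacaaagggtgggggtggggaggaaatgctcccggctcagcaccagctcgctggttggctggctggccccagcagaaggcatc

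All 10 promoters were open in all 4 libraries. The strength of a promoter was taken as the −log10 p of its strongest peak within 1000 bp of a protein-coding TSS, ranked anew in each library among the 14494 genes with such a peak in all 4 lists, from 0 for the weakest to 100 for the strongest. A gene was called lower or higher in K20R when both K20R ranks lay beyond both WT ranks. With 2 against 2 libraries the exact permutation test (two-sided) cannot give a p below 0.333, so no single gene could pass a usual threshold. Of the 10 members, 1 was lower, 2 were higher and 7 overlapped, against 23.0% of all genes lower and 23.9% higher. These shares are close to those of all genes, and the median difference of the members was -0.40 percentile points against 0.066 for all genes.

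**Figure D1:**
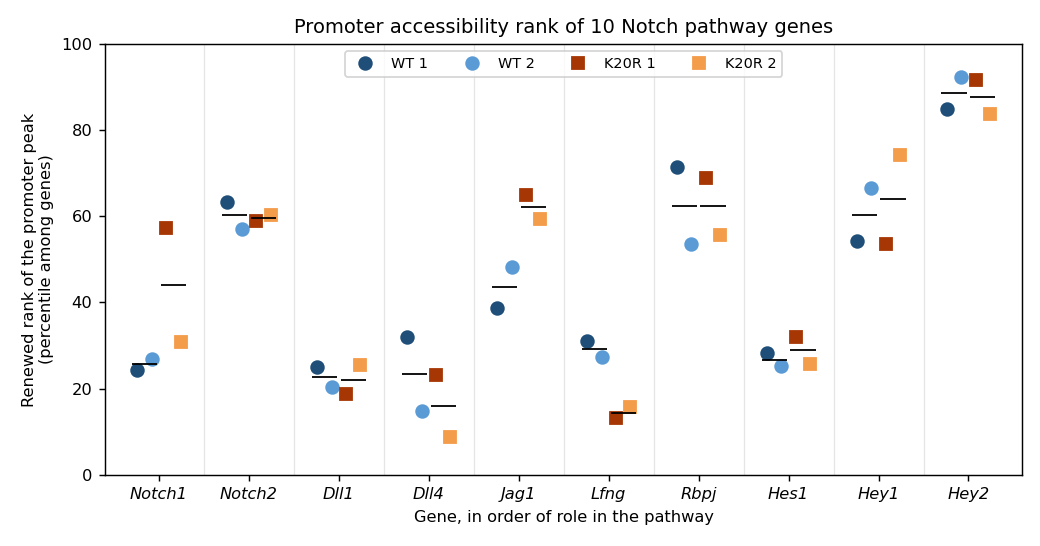
Renewed rank of the promoter peak (percentile among 14494 genes, vertical axis) for the 10 Notch pathway genes in the 2 WT libraries (circles) and the 2 K20R libraries (squares), with a line at each genotype's mean. Jag1 and Notch1 lie higher and Lfng lower in both K20R libraries, the other 7 genes overlap, and all 4 Hey2 points lie above those of every other gene.

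Of the receptors, Notch1 has its protein-coding TSS at chr2:26503822 on the minus strand (gene ENSMUSG00000026923.15, chr2:26457903-26516663). Its promoter ranked 24.4 and 26.9 in WT against 57.3 and 30.7 in K20R. Both K20R libraries were above both WT libraries, but K20R replicate 2 exceeded the nearer WT library by far less than K20R replicate 1 did. The mean difference was 18.4 points (exact permutation p = 0.333, n = 2 per genotype), and 9.87 points when ranked by fold. When peaks were ranked within the whole list instead, the Notch1 promoter was at percentiles 75.6 and 78.0 in WT against 87.6 and 78.0 in K20R, and the genotypes overlapped. The gene record reaches further upstream, and at its end only WT replicate 2 has a peak, at the percentile 3.8, so that with the end of the record as the single TSS Notch1 could not be ranked. On the scale of the whole list 32.2% of all genes were lower and 15.8% higher, and the members gave 2 lower, Lfng and Notch2, and 1 higher, Jag1.

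The Notch2 promoter (TSS at chr3:98013538, plus strand) ranked 63.3 and 57.1 in WT against 58.9 and 60.2 in K20R. The K20R values lay between the WT values. Notch2 was therefore not distinguishable between the genotypes on the renewed rank, although its percentile within the list was lower in both K20R libraries.

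Among the ligands, Jag1 (TSS at chr2:137116644, minus strand) ranked higher in K20R. Its ranks were 38.6 and 48.3 in WT against 64.8 and 59.4 in K20R, with means of 43.5 ± 6.87 and 62.1 ± 3.87 (SD, n = 2 each). The difference of 18.6 points was above the 95% quantile of 16.7 over all genes, with an exact permutation p of 0.333. It was smaller on the other scales, at 9.75 points when ranked by fold and 4.89 points within the whole list, and both kept Jag1 higher in both K20R libraries. The summit was 625 bp upstream of the TSS, and the sequence printed for it holds 1 RBPJ core. Dll1, the Delta ligand of the somite-forming mesoderm (TSS at chr17:15375976, minus strand), ranked 25 and 20.4 in WT against 18.8 and 25.4 in K20R. Dll4, a ligand known from the endothelium (TSS at chr2:119325784, plus strand), ranked 32.1 and 14.7 in WT against 23.1 and 8.87 in K20R. Replicate 2 was the lower library of both genotypes for Dll4, and neither ligand separated the genotypes.

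Lfng encodes Lunatic fringe, which modifies Notch receptors with sugar and changes their response to ligands. Its promoter (TSS at chr5:140607320, plus strand) was the 1 member promoter that ranked lower, at 31.1 and 27.3 in WT against 13.2 and 15.7 in K20R. The means were 29.2 ± 2.63 and 14.4 ± 1.76 (SD, n = 2 each), and the exact permutation p was 0.333. The difference of -14.7 points lies inside the central range of all genes, whose 5% quantile is -17.1. Summit folds over the local background were 4.70 and 5.09 in WT against 4.07 and 5.01 in K20R, and so overlapped. Ranked by fold among all genes, Lfng was still lower in both K20R libraries, by 2.24 points on average.

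Rbpj, the DNA-binding partner of the cleaved receptor, has protein-coding TSSs between chr5:53555834 and chr5:53590981 on the plus strand. Its strongest promoter peak ranked 71.3 and 53.7 in WT against 68.9 and 55.7 in K20R, and replicate 1 was the higher library of both genotypes. The most upstream of these promoters had another pattern. The region chr5:53555056-53556516 had no peak in WT replicate 1, stood at the percentile 10.5 of the list in WT replicate 2 and reached 54.2 and 65.8 in K20R. It was singled out after its values were seen, and since 1 WT list has no peak there it entered no call.

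The targets overlapped between genotypes. Hey2 (TSS at chr10:30842801, minus strand) had the strongest promoter of the 10 genes, with ranks of 85.0 and 92.4 in WT against 91.6 and 83.8 in K20R. Hey1 (TSS at chr3:8667256, minus strand) ranked 54.3 and 66.5 in WT against 53.6 and 74.3 in K20R, with replicate 2 higher in both genotypes. Hes1 (TSS at chr16:30065340, plus strand) ranked 28.3 and 25.2 in WT against 31.9 and 25.8 in K20R. The peak behind these Hes1 ranks has its summit 1176 bp upstream of the TSS. The core promoter with the RBPJ pair is a separate region, chr16:30064890-30065661, with renewed ranks among common regions of 54 and 50.6 in WT against 53.6 and 54 in K20R, which overlapped. Within 500 bp of the TSS, where this peak was the one ranked among genes, Hes1 was called lower, with a mean difference of -0.949 points.

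A further 46 genes of the pathway were examined in the same way. Of these, 45 had promoter peaks in all 4 lists, and Hes7, a repressor of the segmentation clock, had none in any. The K20R ranks were lower for 12 and higher for 13, with 20 overlapping. The 2 directions were about equally frequent, as over all genes, of which 23.0% were lower and 23.9% higher. The median difference of the further genes was -1.05 points. Ranked within the whole list, where 32.2% of all genes are lower and 15.8% higher, 14 were lower and 9 higher. By class, 1 of 2 receptors, 2 of 4 ligands, 2 of 4 measured targets, 3 of 6 cofactors, 1 of 9 processing genes and 3 of 11 regulators were lower. Higher were 1 ligand, 1 of 4 glycosyltransferases, 1 target, 2 cofactors, 2 of 5 corepressors, 3 processing genes and 3 regulators. With 2 to 11 genes per class these counts are a description only.

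The ligand Dll3 (gene at chr7:28293553-28302238), known from the somite-forming mesoderm, had the lowest difference of these genes. It ranked 52.2 and 57.9 in WT against 8.59 and 13.6 in K20R, a difference of -43.9 points (exact permutation p = 0.333, n = 2 per genotype). No K20R value came near a WT value. Kat2b, an acetyltransferase and coactivator, ranked 77.5 and 67.2 in WT against 41.8 and 46.4 in K20R. Maml2, a coactivator of the Mastermind family, ranked 68.6 and 59.3 in WT against 35 and 42.1 in K20R. In K20R replicate 2 the strongest Maml2 peak was at another TSS of the gene than in the other 3 libraries, so that value is of another promoter. Its relative Maml1 ranked higher, with 79 and 74.8 in WT against 93.0 and 90.4 in K20R. Also higher were Dtx2, a Deltex ubiquitin ligase, with 28.7 and 26.5 in WT against 56.1 and 36.3 in K20R, and Adam17, a protease able to cleave Notch receptors outside the membrane, with 81.8 and 71.8 in WT against 92.3 and 90.2 in K20R.

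**Figure D2:**
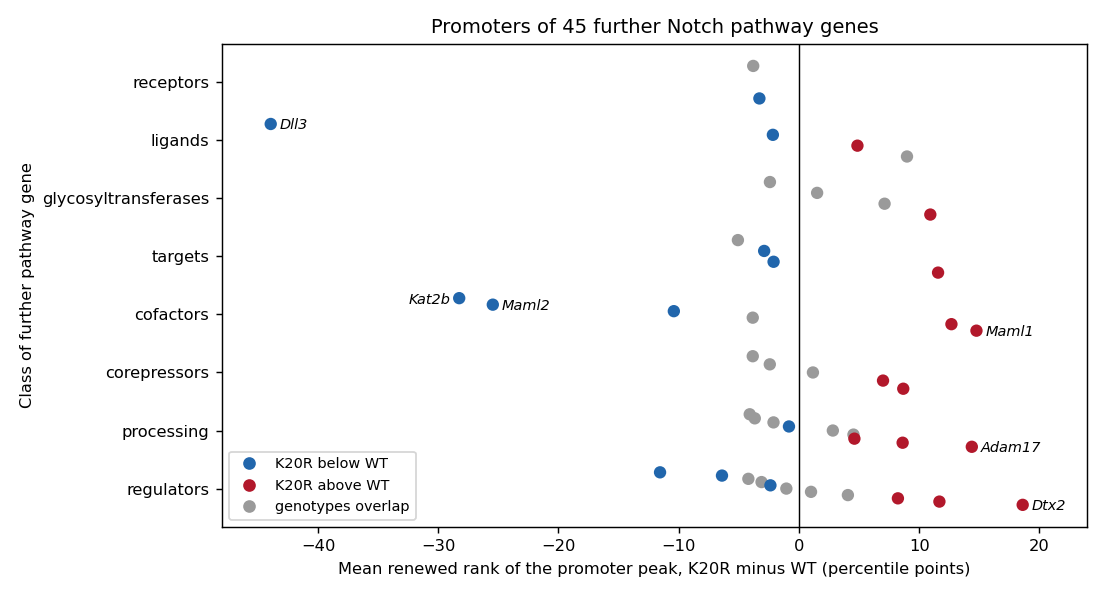
Mean renewed rank of the promoter peak in K20R minus WT (percentile points, horizontal axis) for the 45 further pathway genes with a peak in all 4 lists, 1 point per gene, in rows by class. Blue points are genes with both K20R values below both WT values (12), red points above (13) and grey points overlap (20), and Dll3 stands at -43.9.

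Around the 10 genes the 4 lists were merged into 100 regions with an edge within 50000 bp of a member's TSS, a region being the union of peaks that share at least 1 bp. None of the regions counted for more than 1 member. Peaks per library in these windows numbered 78 and 91 in WT against 71 and 70 in K20R, with means of 84.5 ± 9.19 and 70.5 ± 0.707 (SD, n = 2 each, exact permutation p = 0.333). The members had 16.6% fewer peaks in K20R, while all peaks near protein-coding TSSs were 11.7% fewer. When each list was cut to the length of the shortest, keeping its strongest peaks, the means were 68.0 and 67.0 (exact permutation p = 1.00). The length under peaks overlapped, at 62713 and 71106 bp in WT against 57489 and 65976 bp in K20R. The share of all genes whose length under peaks does not overlap was not computed. Among the 10 members, as a description only, the length did not overlap at 6. It was shorter in K20R at Hes1 (8908 and 9259 bp in WT, 4972 and 5513 bp in K20R), Hey1 (5624 and 5268, then 3777 and 4019 bp), Notch1 (9960 and 9820, then 7204 and 8853 bp) and Dll1 (5253 and 6077, then 5046 and 5059 bp). It was longer in K20R at Rbpj (3668 and 4697, then 5756 and 7401 bp) and Hey2 (4042 and 4011, then 4879 and 4966 bp).

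Of the 100 regions, 47 were common to all 4 lists, 12 were WT-restricted (a peak in both WT lists and in neither K20R list), 1 was K20R-restricted and 40 were mixed. The corresponding shares of the 60123 regions within 50000 bp of any protein-coding TSS were 52.8% common, 8.76% WT-restricted and 2.97% K20R-restricted. Outside promoters, 14.3% of the 84 regions near members were WT-restricted, against 11.1% of 44766 such regions near all genes, and 1.19% against 3.66% were K20R-restricted. None of the 16 regions with a promoter summit was restricted to 1 genotype. The WT-restricted regions lay in introns (4) and between genes (8), and they were weaker than the common ones, with a median list percentile of 29.3 against 72.2.

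**Figure D3:**
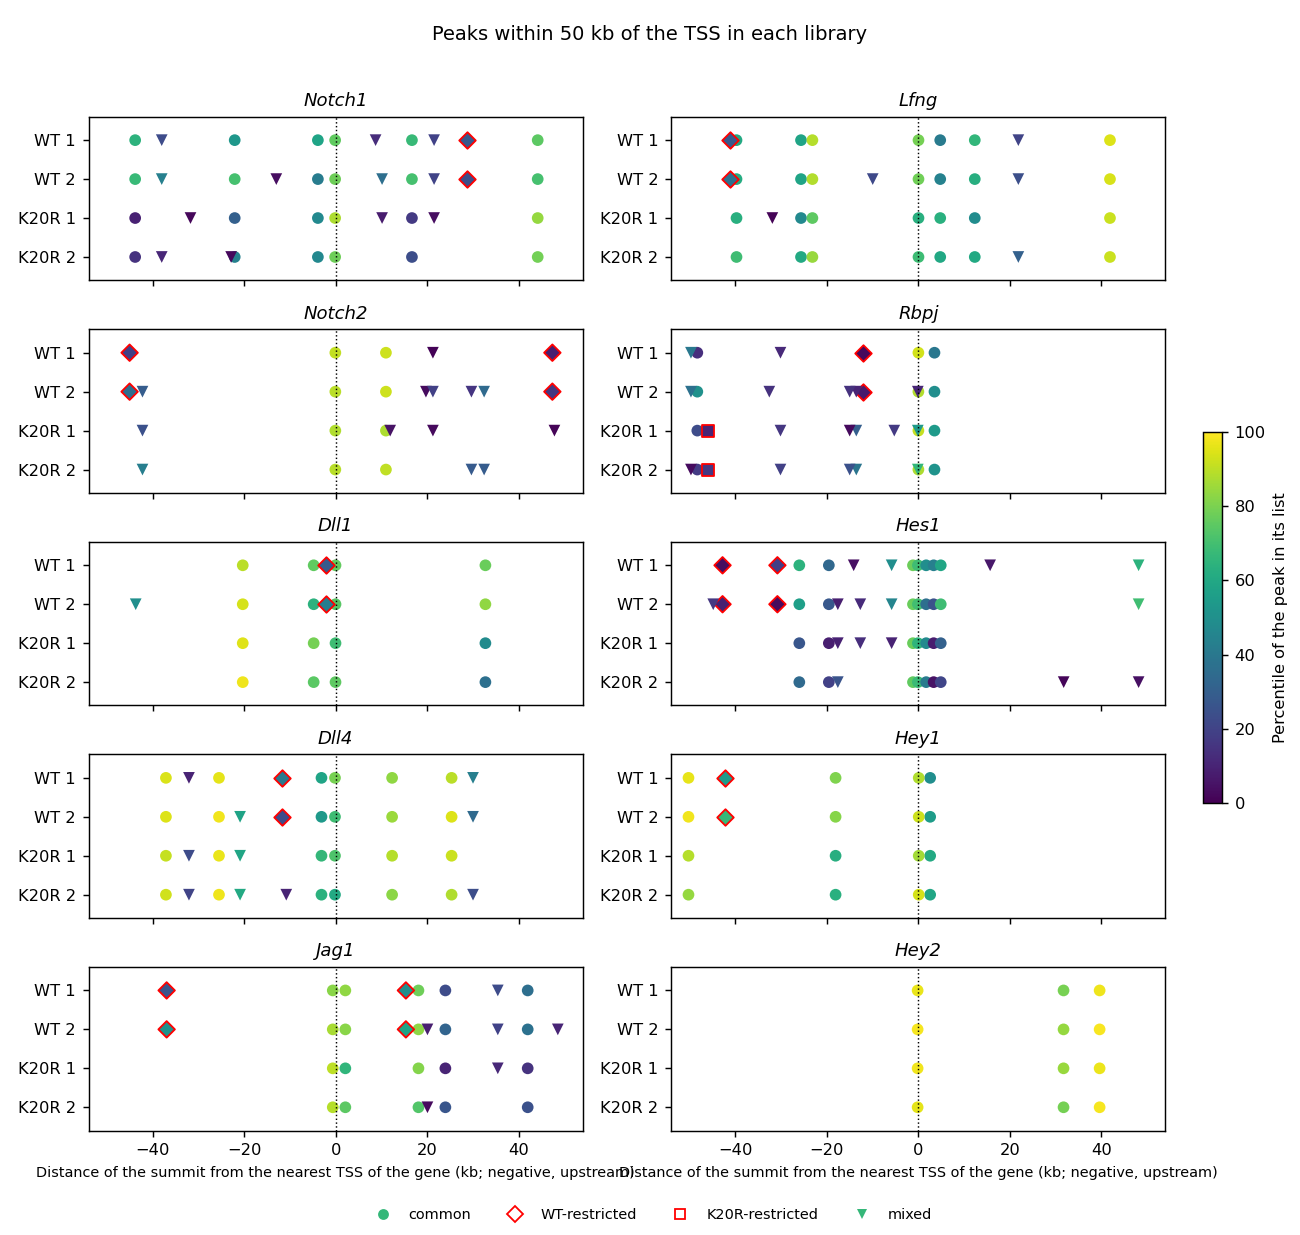
Regions within 50000 bp of the TSS of each gene in the 4 libraries, by distance of the summit from the nearest TSS of that gene (kb, horizontal axis), with colour for the percentile of the peak in its list. Circles are common regions, red-edged diamonds the 12 WT-restricted regions, the red-edged square the 1 K20R-restricted region at Rbpj, and triangles mixed regions. Hey2 has 3 regions, all common.

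Jag1 had a pair of WT-restricted regions. That in its intron, chr2:137101006-137101408, was 15355 bp downstream of the TSS and stood at list percentiles of 49.5 and 57.9. That at chr2:137153190-137154315, 36930 bp upstream, stood at 26.3 and 51.2. The Jag1 promoter ranked higher in K20R, while these regions had no listed peak there. A rank and an absence are unlike measures. Numbers are missing from the peak names of both K20R lists at both places, so a called peak can have been taken out. Hey1 had the highest ranked of the WT-restricted regions near members, chr3:8708919-8709843, 42221 bp upstream. It stood at 54.5 and 66.8 with summit folds of 5.04 and 7.21. Its sequence holds an RBPJ core, an AGATAA and a CACGTG.

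At the other ligands, Dll1 had the region chr17:15377549-15378184, 2074 bp upstream, at list percentiles of 27.9 and 42. Dll4 had chr2:119313256-119314910, 11664 bp upstream, at 40.4 and 22.9. The latter window holds 2 RBPJ cores. Near the receptors, Notch1 had an intronic region at chr2:26474939-26476119, 28731 bp downstream, at 27.5 and 24.1. Notch2 had chr3:97968204-97968988, 45022 bp upstream, at 18.8 and 35.3, and an intronic region, chr3:98060691-98061184, 47367 bp downstream, at 8.5 and 15.9. These 5 regions all ranked below the Hey1 region in both WT lists.

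The weakest were at Hes1 and Rbpj. Hes1 had chr16:30022373-30023044, 42792 bp upstream, at 3.4 and 8.6, and chr16:30034107-30034687, 30802 bp upstream, at 18 and 2.4. Rbpj had the intronic region chr5:53543752-53544133, 12020 bp from the nearest TSS, at 2.3 and 7.0. Lfng had chr5:140566029-140566378, 41204 bp upstream and nearest to the TSS of Grifin, at 27.6 and 36.8. The 1 K20R-restricted region, chr5:53509453-53509832, lay in Rbpj, 46069 bp upstream of the nearest TSS, at percentiles of 9.4 and 16.2 in K20R.

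Absence of a peak is limited by how the lists were made. Numbers are missing from the peak names in each list, so a called peak can have been taken out before deposit. No number is missing at the place of the region in both K20R lists for only 2 of the 12 WT-restricted regions, those upstream of Dll1 and of Notch2. When the lists were cut to equal length in this way, 10 regions were WT-restricted and 7 K20R-restricted.

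The 47 common regions allow a comparison of strength without absence. Ranked anew among the 38527 common regions of the genome, 17 were lower in K20R, 11 were higher and 19 overlapped, against 24.4% lower and 29.0% higher of the 31760 common regions near protein-coding TSSs. Ranked within the whole list, 20 were lower and 8 higher, and the shares of all were then 34.3% and 18.1%. The 15 common promoter regions gave 3 lower (Lfng and the neighbouring genes Vps18 and Ttyh3) and 3 higher (Jag1, Notch1 and the neighbour Fam120b), while the 32 outside promoters gave 14 lower and 8 higher, against 27.8% lower and 29.7% higher of 17941 such regions. Intergenic regions held 11 of these 14, and 20 of the 32 common regions outside promoters. The share of lower regions among all intergenic common regions was not computed. The median difference outside promoters was -2.87 points near the members and 0.596 near all genes.

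The 3 lowest differences had list percentiles that were far apart between genotypes. In the intron of Notch1, chr2:26486338-26487984, 16677 bp downstream of the TSS, the values were 67.5 and 70.7 in WT against 16.9 and 23.5 in K20R. The difference of renewed ranks was -45.1 points, and -26.1 points when ranked by fold. Upstream of Notch1, chr2:26546563-26547955 stood at 64.1 and 67.4 in WT against 9.2 and 14.8 in K20R, a difference of -44.3 points. This region is 43808 bp from Notch1 and nearer to the TSS of Egfl7, an endothelial gene, so it cannot be tied to Notch1 by position. Downstream of Dll1, chr17:15342850-15343683 stood at 77.1 and 83.2 in WT against 48.0 and 36.4 in K20R, a difference of -43.3 points. All 3 lie below the 5% quantile of -29.9 over common regions outside promoters and above the 1% quantile of -51.5. They were picked as extremes of these same lists, so a kept sign under other settings says little. The K20R replicate 1 peaks of the Notch1 regions were weak, with a −log10 q of 2.50 in the intron and 1.75 upstream. Both regions dropped out with a −log10 q of at least 5, and where peaks had to cover most of the region. With at least 10 the Dll1 region dropped out too.

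**Figure D4:**
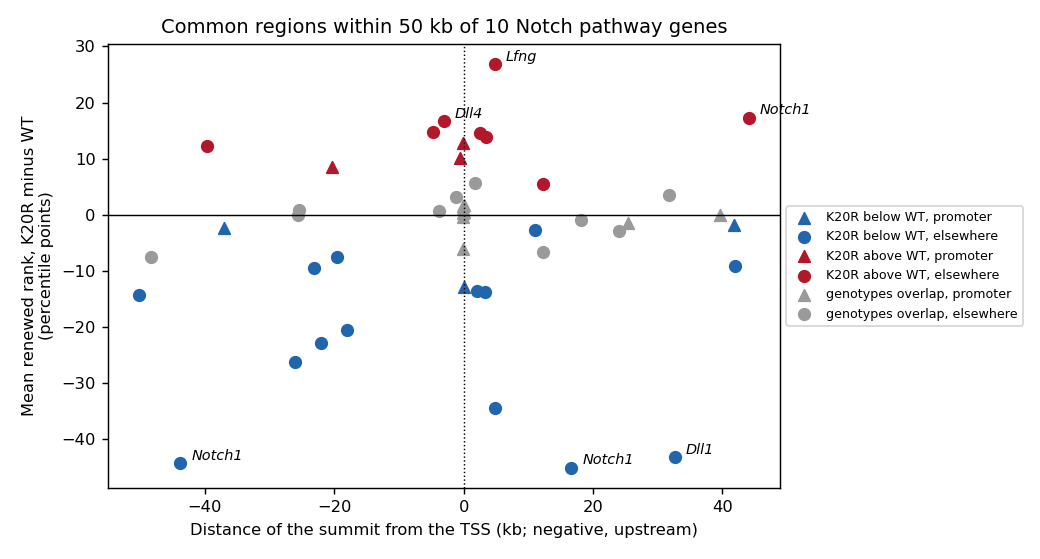
Mean renewed rank in K20R minus WT (percentile points, vertical axis) of the 47 common regions within 50000 bp of the 10 genes, by distance of the summit from the TSS (kb, horizontal axis). Blue points are regions with both K20R values below both WT values (17), red points above (11) and grey points overlap (19), with triangles for promoter summits. The labelled regions are the 3 lowest, near -44, and the 3 highest.

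In the opposite direction, the intronic region of Lfng at chr5:140610757-140612624, 4781 bp downstream of the TSS, stood at 41.0 and 43.8 in WT against 63.6 and 59.9 in K20R, a difference of 26.8 points, and of 16.8 points when ranked by fold. Lfng thus had its promoter lower and this intron higher in K20R. The intronic region dropped out with a −log10 q of at least 10. A region with its summit in an exon near the 3′ end of Notch1, chr2:26458245-26461122, stood at 74.6 and 70.7 in WT against 84.3 and 78.8 in K20R (17.3 points) and is nearest to the TSS of Sec16a. Its summit folds overlapped, with 6.13 and 6.58 in WT against 6.26 and 6.44 in K20R. Ranked by fold its difference was 1.79 points, and within the whole list it was 8.88 points. The region dropped out where peaks had to cover most of it. Upstream of Dll4, chr2:119322105-119323405 stood at 58.5 and 53.6 in WT against 66.4 and 63.7 in K20R (16.6 points, against 10.9 points when ranked by fold and 8.96 points within the whole list).

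The counts varied between loci, with few regions in each. At Hes1, 4 of 7 common regions were lower in K20R and none was higher, and the region 4896 bp downstream of its TSS fell from percentiles of 59.3 and 69.0 to 30.5 and 20.7. A mixed region 48134 bp downstream of the Hes1 TSS stood at 64.4 and 69.5 in WT, was not listed in K20R replicate 1 and stood at 3.9 in K20R replicate 2. At Notch1, 3 of 6 were lower and 2 higher. At Hey1, 2 of 4 were lower and 1 higher, and at Hey2 all 3 overlapped. The median difference within 50000 bp was -11.1 points at Notch1, -7.54 at Hes1, -6.29 at Hey1, -2.98 at Jag1, -1.92 at Lfng and -1.24 at Notch2. It was -0.293 at Dll4, -0.097 at Hey2, 0.536 at Rbpj and 4.80 at Dll1. Common regions beyond 50000 bp and up to 1000000 bp had medians of -0.095 at Notch1 (75 regions), 0.649 at Hes1 (49 regions) and 2.45 at Hey1 (33 regions). Of these outer regions, 34.7% were lower and 26.5% higher at Hes1. The shares were 20.0% lower and 26.7% higher at Notch1, and 24.2% lower and 33.3% higher at Hey1. Over the 10 genes these outer medians ran from -2.53 to 3.64.

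Windows of 100 bp on either side of the strongest summits were searched for short motifs on both strands. A match is a description of letters, and neighbouring regions share a locus. The RBPJ core TGGGAA was in 25 of the 100 windows and in 19.6% of all 80380 regions. Its longer form GTGGGAA, which contains the core, was in 12 of 100 against 5.00%, at the Hes1 and Hey2 promoters among others. Of the 12 WT-restricted windows 4 held the core (33.3%), against 22.4% of all WT-restricted regions, and none held the longer form. CACGCG was in 7 of the 16 promoter windows (43.8%), against 12.5% of all promoter windows. Of these 16 windows 5 are promoters of neighbouring genes, as are 2 of the 7 with a match (Vps18 and Chac1, near Dll4), and the median GC content of the 16 was 67.7% against 65.2%.

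The remaining motifs were near or below the share of all regions. CACGTG was in 5 of 100 windows (3.95% of all), the N-box CACNAG in 39 (40.5%), AGATAA in 5 (7.81%) and the TCF-LEF site CTTTGAT in 1 (2.68%). The T-box site TCACACCT was in no member window and in 1.25% of all. The CTCF consensus was in 1 window, over an exon of Hey1, 2581 bp downstream of its TSS, and in 5.97% of all regions. That Hey1 region was higher in K20R, with percentiles of 49.1 and 54.9 in WT against 60.3 and 59.3 in K20R.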

How the data were processed

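ATAC-seq was performed with 2 biological replicates of WT and 2 of CTCF-K20R day 4 EBs. Genotypes were taken from the sample titles, because the genotype label of the K20R samples reads as both wild and CTCF-K20R. According to the study's methods, reads were trimmed (Trim_Galore), aligned to mm10 (bowtie2), freed of low mapping quality, duplicate and blacklisted reads, and peaks were called by MACS2 for each library. In the deposited lists the score is 10 times the −log10 p, the ratio is the summit's fold over local background, and the summit also has a −log10 p and a −log10 q, all as the authors gave them. The lists reach down to a −log10 p of 2.00 and hold between 50.5% and 60.8% of their peak numbers, by a rule not given in the sources used here. Values of different libraries were compared as ranks, since fold and p change with depth.

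Peaks were assigned to TSSs of protein-coding transcripts of GENCODE M21 basic (mm10), and the largest peak end was 0.999 of its chromosome's length in the genome used. Sequence was read from the RefSeq genome of that build. Annotated exons were left out of the printed sequences only. Motif shares and GC content were taken over the full windows, exons included. Coordinates count from 1. Python 3.11.15 with numpy 2.4.6 and pandas 2.3.3 was used, and the steps were tested on simulated data. Differences were judged by non-overlap and exact two-sided permutation tests. P-values measure only the spread between these samples. Alternatives were other promoter windows, distances, scales, q thresholds, overlaps, libraries left out and a replicate block. The members and gene lists were chosen with earlier results of these data known. Of the further genes, those named lacked a promoter peak or were among the 3 largest non-overlapping differences in each direction.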

Additional observations from a re-analysis of the deposited data

How the results depend on the processing

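The counts rest on 2 libraries per genotype and on ranks, since read depth is unknown. Of 125 alternative values of the main counts, 79 stayed within 1.5 times the reported count or on the same side of the test. The other 46 moved. For peaks near members the side of the test could not change, since its p cannot fall below 0.333. The differences of Notch1, Jag1, Lfng and the 6 extreme regions kept their sign where recomputed, but stricter settings dropped some regions. Other promoters did not: Hes1 was lower with a 500 bp window or distances to the summit and higher without WT replicate 1, without K20R replicate 2 and with the replicate block, and Notch2, Rbpj, Hey1 and Dll1 were also called in both directions across settings. Jag1 was higher and Lfng lower in every setting in which promoters were ranked. Promoters lower in K20R rose from 1 to 2 with a 500 bp window (Hes1, Lfng), with percentiles within the list (Lfng, Notch2) and with distances to the summit (Hes1, Lfng), the last an alternative chosen after seeing the data. Promoters higher fell from 2 to 1 with percentiles within the list and with a single TSS per gene. Ranked by fold, further pathway promoters lower fell from 12 to 7 and common regions higher from 11 to 7. Of all promoters 19.9% were then lower and 20.1% higher, and of all common regions 20.8% and 22.9%. With a single TSS per gene 3 regions were K20R-restricted.

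Within 10000 bp, 1 region was WT-restricted and 0 K20R-restricted. Of 21 common regions there 4 were lower and 7 higher, against 22.5% and 28.4% of all common regions. Within 20000 bp the restricted counts were 4 and 0. Of 29 common regions 8 were lower and 9 higher, against 23.3% and 28.8% of all. Within 100000 bp the restricted counts were 23 and 3. Of 82 common regions 29 were lower and 23 higher, against 24.9% and 29.1% of all. The −log10 q of at least 5 left 9 of 37 common regions lower and 9 higher, against 23.8% and 27.5% of all. That of at least 10 left 6 WT-restricted regions. It left 8 of 29 common regions lower and 6 higher, against 23.7% and 26.4% of all. Lists cut to equal length by strength gave 7 K20R-restricted regions. Presence only where peaks cover most of the region gave 6, with 10 of 35 common regions lower and 7 higher, against 23.7% and 28.0% of all. Without missing peak numbers in the other genotype, 2 WT-restricted and 0 K20R-restricted regions were left. These last counts, and those at other distances and q thresholds, are taken over fewer or more regions by construction. For the other moves the cause was not tested.

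Leaving out each library in turn, which makes non-overlap easier by construction, gave 2 to 4 promoters lower and 2 to 5 higher, and 15 to 19 further promoters lower and 14 to 20 higher. The same gave 16 to 20 WT-restricted and 4 to 7 K20R-restricted regions, 22 to 25 common regions lower and 15 to 23 higher, and a difference in peaks near members of -20.5 to -7.5. With a replicate block, in which K20R had to lie beyond WT within both same-numbered pairs, 2 member promoters were lower (Dll4, Lfng) and 3 higher, 15 further promoters were lower and 14 higher, and 19 common regions were lower and 13 higher, against 30.2% and 31.2% of all promoters and 30.3% and 36.2% of all common regions. The difference in peaks stayed at -14 (exact paired permutation p = 0.50). Deviations of same-numbered libraries correlated by 0.040 over promoters and 0.041 over common regions, and with 2 pairs the libraries share only a number.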
